A study of Arabidopsis thaliana with 12 samples.

Results

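CHLM and AT1G74470 are 2 nuclear genes of chlorophyll synthesis in Arabidopsis thaliana. They were followed as the 2 probes that list CHLM (locus AT4G25080) or AT1G74470 as their only gene, out of 692 probes that list 1 gene and 3439 probes on the array. No probe that lists several genes included either of them. Total RNA was compared between WT plants and psak mutants, both of ecotype Columbia 0, with 6 samples of each. PSI-K, which the mutants lack according to the labels, sits in the membrane part of photosystem I and takes part in attaching its light-harvesting antenna. The comparison asks how the 2 transcripts respond to its loss. The labels give neither the tissue, the age of the plants, the growth conditions nor the nature of the psak allele, and no probe lists PSAK as its only gene, so the genotype was not checked by its level.

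Chlorophyll is built in the plastid from 2 parts that are made apart and then joined. The ring comes from the tetrapyrrole pathway, in which magnesium chelatase inserts the magnesium into protoporphyrin and CHLM, the magnesium protoporphyrin methyltransferase, then transfers a methyl group from S-adenosylmethionine to the product. The tail comes from the isoprenoid pathway, in which geranylgeranyl reductase, encoded by AT1G74470, saturates the geranylgeranyl chain to phytyl, the tail of chlorophyll and of tocopherol. CHLM thus acts on the ring and AT1G74470 on the tail. Chlorophyll made this way is bound by the photosystems and their antennae.

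Deposited intensities ran on a linear scale from 0 to 100. In each sample 13.0% to 19.4% of the values were exactly 0, and the median of the values above 0 was 0.218 to 0.419. The 4 psak samples numbered 1 to 4 had medians of 0.381 to 0.419, above the 0.316 to 0.338 of WT 1 to 4, whereas psak 5 and 6 had 0.218 and 0.226 against 0.409 and 0.411 in WT 5 and 6. Samples with neighbouring numbers (1 and 2, 3 and 4, 5 and 6, here called number pairs) were alike, with a consensus correlation of 0.590 within a pair of 1 genotype. The labels do not say whether samples came from separate plants, so the spread between them may be partly technical. The number of samples limits the precision of every value.

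CHLM, the ring enzyme, was brighter in psak in samples 1 to 4 and dimmer in samples 5 and 6. In WT its deposited intensity was 0.136, 0.233, 0.211, 0.123, 0.285 and 0.286 in samples 1 to 6. In psak it was 0.470, 0.344, 0.368, 0.392, 0.168 and 0.155. The psak samples 1 to 4 lay above all 6 WT samples, and psak 5 and 6 lay among the WT samples and below WT 5 and 6, so that the groups overlapped. Of the 2358 probes above 0 in all samples, 26.9% were higher in psak 1 to 4 than in all of WT 1 to 4. In psak 5 and 6, 75.7% were lower than in WT 5 and 6, and 19.3% did both. WT averaged 0.212 ± 0.0706 (SD, n = 6) and psak 0.316 ± 0.127, which gives a ratio of means of 1.49. All 12 values were above 0.

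AT1G74470, the tail enzyme, was dimmer in psak without overlap within numbers 1 to 4 and within numbers 5 and 6. Of the 2358 probes above 0 in all samples, 15.4% were so within numbers 1 to 4. Within numbers 5 and 6, 75.7% were so, and 12.6% were so in both. Its WT intensities were 4.39, 3.53, 2.87, 3.02, 2.47 and 2.14. Its psak intensities were 2.67, 2.41, 1.96, 1.78, 2.06 and 2.08. The 4 psak samples numbered 3 to 6 lay below every WT sample, while psak 1 and 2 lay above WT 6, and psak 1 also above WT 5. WT averaged 3.07 ± 0.804 (SD, n = 6) and psak 2.16 ± 0.325, which gives a ratio of means of 0.703. Tested on the values as deposited, the difference of -0.48 on the log2 scale did not pass (limma adjusted p = 0.130), where 14.1% of all probes tested did. WT samples spread more widely than psak samples for this gene, with coefficients of variation of 26.2% and 15.1%.

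**Figure D1:**
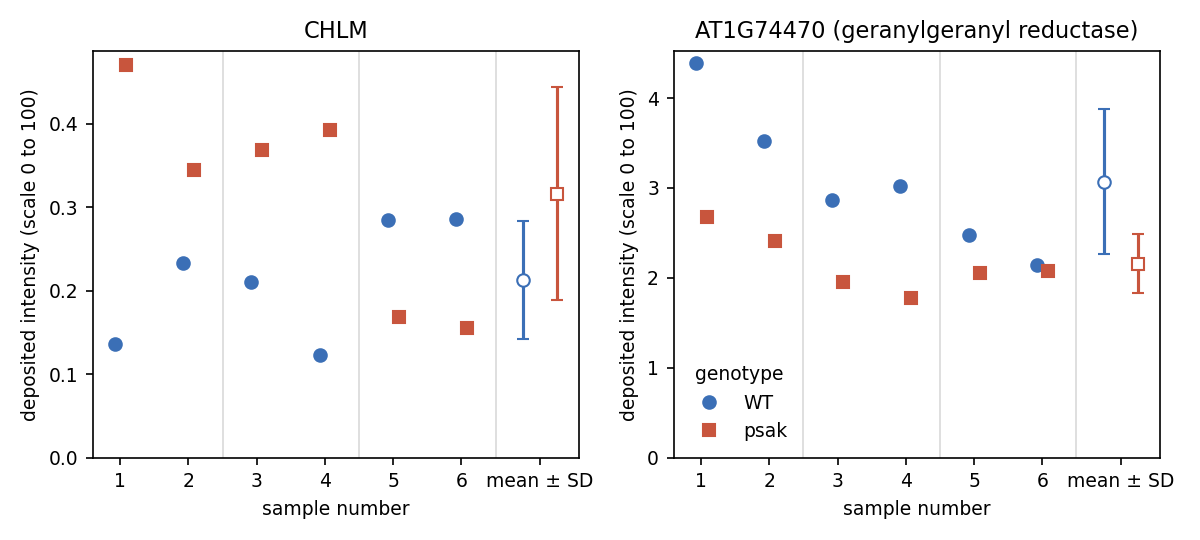
Deposited intensity (vertical axes, scale 0 to 100) of CHLM (left) and AT1G74470 (right) by sample number, with WT as circles and psak as squares; open symbols with bars give the mean ± SD of 6 samples, and grey lines part the number pairs. CHLM was higher in psak 1 to 4 (0.344 to 0.470) than in any WT sample and lower in psak 5 and 6 (0.168 and 0.155). AT1G74470 was lower in psak without overlap within numbers 1 to 4 and within numbers 5 and 6. The latter arrangement held for 12.6% of the 2358 probes above 0 in all samples.

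The test of the study's comparison took the 12 samples as separate, with no allowance for number pairs. It was made on quantile-normalized log2 values, since the sample distributions differed. On this scale the CHLM level averaged -2.33 ± 0.400 (SD, n = 6) for WT and -1.70 ± 0.263 for psak. The log2 fold change was 0.63 ± 0.20 (SE), with a 95% interval from 0.19 to 1.07, and it did not pass over all 2993 probes tested (limma adjusted p = 0.0576; unadjusted p = 0.00922). Of all probes tested, 14.8% passed at an adjusted p under 0.05 and 29.2% had an unadjusted p under 0.05. All 6 psak values lay above all 6 WT values, but the lowest psak value (-1.957, sample 6) and the highest WT value (-1.960, sample 2) nearly touched. Such a separation upward held for 6.23% of the 2358 probes above 0 in all samples.

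For AT1G74470 the normalized log2 level averaged 1.41 ± 0.291 (SD, n = 6) for WT and 1.25 ± 0.206 for psak. The log2 fold change was -0.16 ± 0.17 (SE), with a 95% interval from -0.52 to 0.20 (limma adjusted p = 0.551). That interval runs from a decrease to 0.698 of the WT level to an increase to 1.15 times that level. It makes no allowance for number pairs, so it may be too narrow. The normalized values of the groups overlapped, from 1.02 to 1.88 in WT and from 1.06 to 1.61 in psak. Both genes had tighter values than most probes: the residual SD was 0.338 for CHLM and 0.252 for AT1G74470, against a median of 0.485 over all probes tested.

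CHLM stood at the edge of the threshold in the fit that took the 12 samples as separate. It passed in 7 of 26 other settings, among them the exact permutation test per probe (two-sided, adjusted p = 0.0183, which 18.3% of 2358 probes passed; its unadjusted p of 0.00216 is the smallest that 924 splits allow), without WT 2 (limma adjusted p = 0.0473), without psak 6 (0.0487) and without psak 5 and 6 (0.0316, where 31.9% of all probes passed). The permutation takes the 12 samples as exchangeable and makes no allowance for number pairs. None of the 7 settings that passed makes such an allowance. CHLM did not pass when number pairs entered as a random block (limma adjusted p = 0.346, with 5.15% of all probes passing) or with the mean of each pair as 1 sample (0.289). Nor did it pass with the sample number (limma adjusted p = 0.133) or the number pair (0.0607) as a replicate block, or with the values as deposited (0.352). AT1G74470 passed in 0 of 26 (limma and exact permutation adjusted p from 0.130 to 0.815; unadjusted p under 0.05 with the values as deposited alone, 0.0302).

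By number pair, the direction of CHLM in numbers 5-6 depended on the scale, and the difference was highest in numbers 3-4 on each of 3 scales. As deposited, psak exceeded WT by 1.17 on the log2 scale in numbers 1-2 and by 1.24 in numbers 3-4, and the difference in numbers 5-6 was -0.82. The median difference of the 2358 probes above 0 in all samples was 0.29, 0.16 and -0.90 in the same 3 pairs, so in numbers 5-6 CHLM moved with the array as a whole. This pattern, above 0 in the first 2 pairs and below 0 in the third, held for 40.9% of these probes as deposited. After quantile normalization the 3 CHLM differences were 0.73, 0.97 and 0.18, and after scaling to equal medians they were 0.80, 1.03 and 0.07, all above 0. A difference above 0 in all 3 pairs held for 19.8% of probes after quantile normalization and for 15.2% after median scaling.

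AT1G74470 kept its direction in numbers 1-2 and 3-4 under each scaling and not in numbers 5-6. Its deposited log2 differences, psak minus WT, were -0.63, -0.66 and -0.15 in numbers 1-2, 3-4 and 5-6. All 3 pairs were below 0 for 24.6% of probes as deposited. After quantile normalization the values were -0.22, -0.25 and -0.0054. After median scaling they were -1.01, -0.87 and 0.73, so that this gene was higher in psak 5 and 6 relative to their low sample medians.

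**Figure D2:**
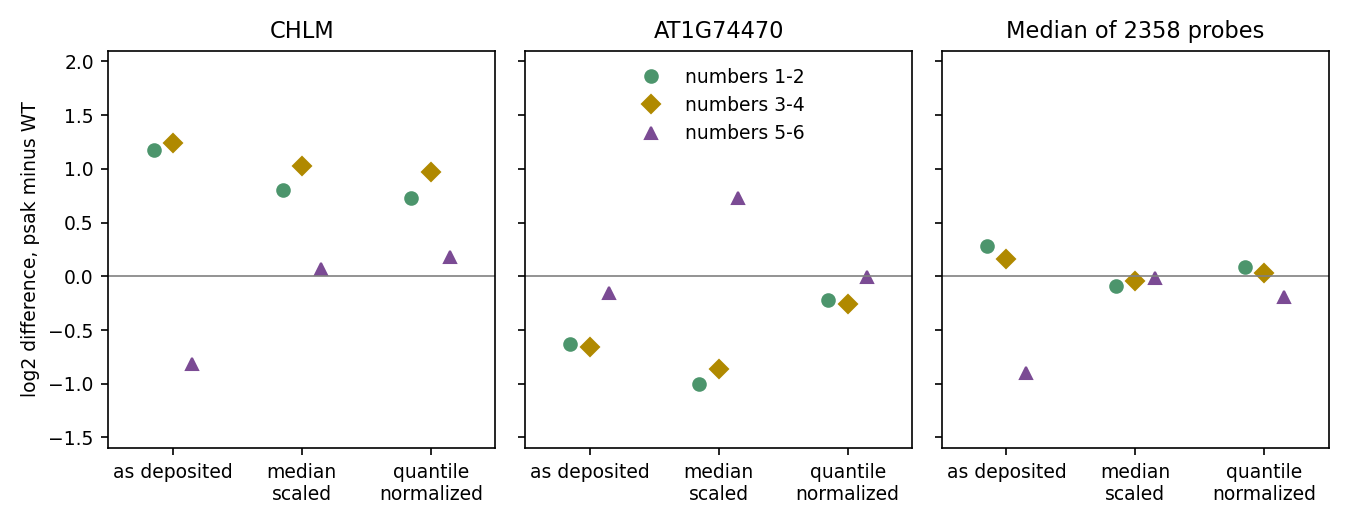
Log2 difference of psak minus WT (vertical axis) within numbers 1-2, 3-4 and 5-6 for CHLM, AT1G74470 and the median of the 2358 probes above 0 in all samples, as deposited, after median scaling and after quantile normalization; each symbol compares 2 psak with 2 WT samples. In numbers 5-6 CHLM moved from -0.82 as deposited to 0.18 after quantile normalization, and the median of all probes stood at -0.90 as deposited.

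Ranked within its own sample, CHLM occupied a higher place in every psak sample than in every WT sample. This restates the separation after quantile normalization, which held upward for 6.23% of 2358 probes, since the normalized values follow that place. The share of a sample's values above 0 that were dimmer than CHLM was 23.1%, 39.0%, 33.7%, 18.1%, 35.1% and 35.2% in WT 1 to 6, and 57.5%, 40.6%, 48.0%, 49.7%, 40.8% and 39.03% in psak 1 to 6. WT 2 (38.96%) and psak 6 (39.03%) were again almost level. Relative to the sample median the groups overlapped, with 5 psak samples above all WT samples and psak 6 (0.713) below WT 2 (0.738). AT1G74470 lay near the top of each sample, brighter than 93.1% to 96.2% of the values above 0 in WT and than 93.4% to 95.5% in psak. Its place thus varied by little, but so near the top a small step in place went with a large step in value. Its place of 96.2% in WT 1 had a normalized log2 value of 1.88, and that of 93.1% in WT 6 had 1.02. These places describe the probes within a sample and not the relative amounts of the 2 transcripts.

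The spread within a number pair differed between pairs for both genes. The absolute log2 difference between the 2 samples of a pair was 0.014 to 0.32 for AT1G74470 over the 6 pairs of both genotypes. It was wider than for 73.1% of probes in WT 5-6 and than for 54.2% in WT 1-2, and than for 4.37% to 43.0% in the other 4 pairs. For CHLM it was 0.78 in WT 1-2 and 0.77 in WT 3-4, wider than for 80.1% and 89.9% of probes in those pairs. In WT 5-6 the CHLM difference was 0.0082, wider than for 4.24% of probes, and in psak it was 0.45, 0.09 and 0.12 in numbers 1-2, 3-4 and 5-6.

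The ratio of CHLM to AT1G74470 within a sample is free of any factor that scales a whole sample. It is not free of a difference in the shape of the distributions, since CHLM is much dimmer than AT1G74470. WT 5 and psak 5, for example, had sums of 3116 and 3119 but medians of 0.409 and 0.226. As deposited it was 0.0310, 0.0662, 0.0734, 0.0408, 0.115 and 0.134 in WT 1 to 6. In psak 1 to 6 it was 0.176, 0.143, 0.188, 0.220, 0.0819 and 0.0748. The psak samples 1 to 4 had higher ratios than any WT sample, while psak 5 and 6 fell among the WT samples and below WT 5 and 6. The ratio averaged 0.0767 ± 0.0406 (SD, n = 6) for WT and 0.147 ± 0.0589 for psak, and the difference of the mean log2 ratio, psak minus WT, was 1.01. No p is given for this ratio, because both genes were chosen with their values known. Since the 2 probes differ in sequence and brightness, only its change between samples can be read.

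In numbers 1 to 4 the mean ratio was 0.0529 in WT and 0.182 in psak, 3.44 times as high, and in numbers 5 and 6 it was 0.125 in WT and 0.0783 in psak, 0.629 times as high. Both genes contributed in the first 4 numbers, CHLM with 2.24 times the WT mean and AT1G74470 with 0.639 times. In numbers 5 and 6 CHLM stood at 0.567 times and AT1G74470 at 0.896 times the WT mean. Among the other 2356 probes above 0 in all samples, 51.7% had a ratio to AT1G74470 that was higher in psak 1 to 4 than in all of WT 1 to 4, and 33.3% were in addition lower in psak 5 and 6 than in WT 5 and 6. After quantile normalization these shares were 24.7% and 8.36%. As deposited, the mean log2 shift of the ratio was larger than that of CHLM for 12.7% of them. AT1G74470 is common to these ratios and cancels, so this share describes the shift of CHLM alone. With quantile-normalized values the difference of the log2 ratio was 0.79, with 0.95, 1.23 and 0.19 in the 3 number pairs, and 5 of 6 psak samples lay above all WT samples; all 6 did so for 8.02% of the other probes.

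**Figure D3:**
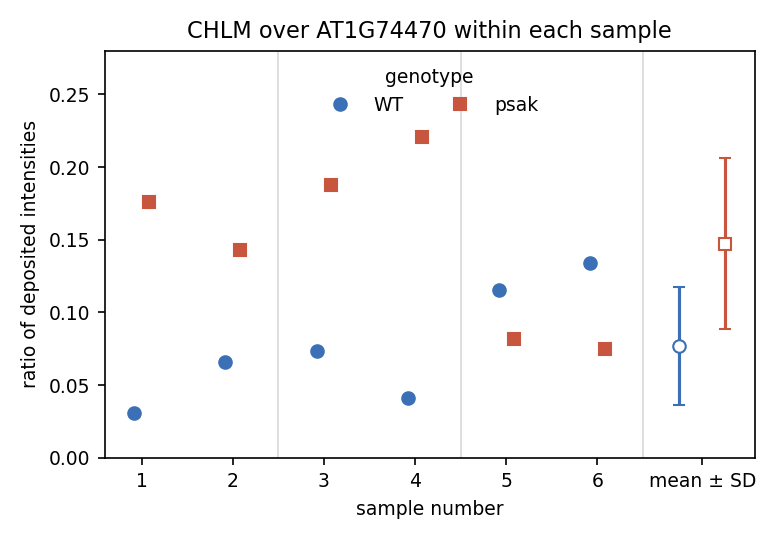
Ratio of the deposited CHLM intensity to the deposited AT1G74470 intensity (vertical axis) by sample number, with WT as circles and psak as squares; open symbols with bars give the mean ± SD of 6 samples, and grey lines part the number pairs. The ratio was 0.143 to 0.220 in psak 1 to 4 against 0.0310 to 0.0734 in WT 1 to 4, and the order was turned in samples 5 and 6.

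The rest of the pigment pathways was thinly covered. Of 88 genes in 5 lists of chlorophyll synthesis, chlorophyll breakdown, the heme and siroheme branch, plastid isoprenoids and carotenoids, 6 had a tested probe of their own, CHLM and AT1G74470 included. With limma 0 of the 6 passed, against 14.8% of all probes tested. Of the 6, 3 had an unadjusted limma p under 0.05, against 29.2% of all probes tested. They were CHLM, which was chosen with its values known, SIRB, which was higher in psak, and AT1G78620, which was lower. The chlorophyll synthesis list of 30 genes had 3 tested members, CHLM, AT1G74470 and HEMA3, with a median log2 fold change of 0.12 against -0.0026 over all probes.

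HEMA3, a gene of glutamyl-tRNA reductase, which opens the tetrapyrrole pathway upstream of CHLM, had intensities from 0.792 to 1.35 in WT and from 0.654 to 1.46 in psak. Its groups overlapped, and the log2 fold change was 0.12 ± 0.24 (SE; limma adjusted p = 0.774). SIRB, the sirohydrochlorin ferrochelatase of the siroheme branch, was at 0.138 ± 0.104 (SD, n = 6) in WT, with 1 sample at 0, and at 0.304 ± 0.153 in psak. The difference of 0.98 ± 0.36 (SE) on the log2 scale did not pass (limma adjusted p = 0.0959), and within numbers 1-2 it was -0.35, from 1 WT and 2 psak values, and 0.099 as deposited. SIRB passed without WT 2 (1.26, limma adjusted p = 0.0176) and without psak 5 and 6 (1.16, 0.0485). In these settings 14% and 31.9% of all probes tested passed.

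AT1G78620, the phytyl phosphate kinase that feeds recycled phytol into tocopherol synthesis, was at 1.03 ± 0.248 (SD, n = 6) in WT and 0.538 ± 0.226 in psak. Its log2 fold change was -0.89 ± 0.38 (SE; limma adjusted p = 0.139), most of it from numbers 1-2 (-2.39), with -0.10 and -0.19 in the other pairs. It passed with the values as deposited (log2 fold change -1.02, limma adjusted p = 0.0462) and without psak 5 and 6 (-1.16, 0.0405). In these settings 14.1% and 31.9% of all probes tested passed. Z-ISO, a carotenoid isomerase of the isoprenoid side, differed by -0.056 ± 0.30 (SE) on the log2 scale (limma adjusted p = 0.924), with a sign that turned when single samples were left out.

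**Figure D4:**
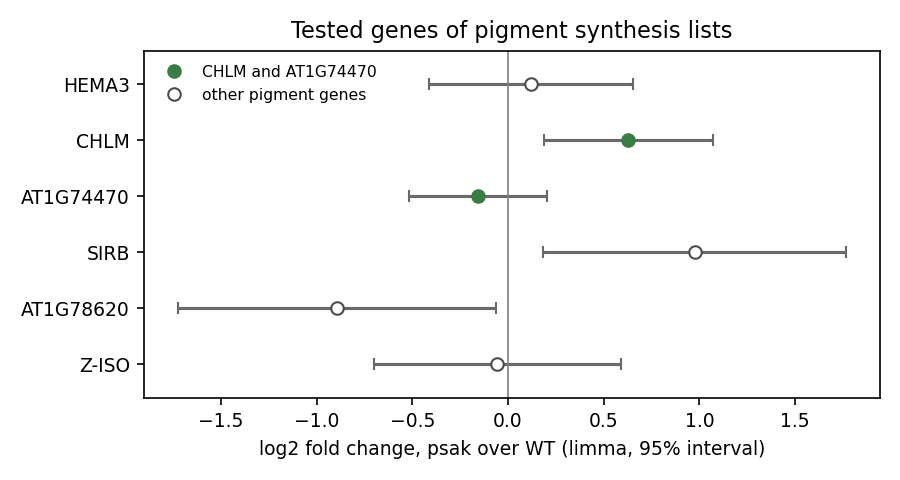
Log2 fold change of psak over WT (horizontal axis) with its 95% interval from limma on quantile-normalized values (6 against 6 samples) for the 6 pigment genes with a tested probe of their own; filled symbols are CHLM and AT1G74470. CHLM stood at 0.63 and AT1G74470 at -0.16, and none of the 6 passed after adjustment over 2993 probes.

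The genes most like each of the 2 were sought by the SD, over the 12 samples, of the log2 ratio of deposited intensities, among 475 other single-gene probes above 0 in all samples. For CHLM the smallest SDs were those of AT5G59400 (0.334), PIFI (0.344), AT3G59300 (0.348), AT5G13410 (0.357) and AT3G55070 (0.366), against a median of 0.739. PIFI encodes a chloroplast protein known for its part in the NADH dehydrogenase-like complex. AT5G59400 had deposited log2 differences of 1.66, 0.88 and -0.40 by number pair, a likeness to CHLM that the measure itself selects. AT5G59400 alone among the 5 passed the test (log2 fold change 0.82 ± 0.16 SE, limma adjusted p = 0.00556), where 14.8% of all probes tested did. The others had log2 fold changes of 0.40 to 0.68 (limma adjusted p from 0.109 to 0.298). The measure spans both genotypes, so it also selects genes with a difference between psak and WT like that of CHLM.

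For AT1G74470 the nearest patterns were those of AT5G27860 (SD 0.202), AT1G13990 (0.255), AT4G20300 (0.257), AT5G62840 (0.274) and AT3G44050 (0.275), against a median of 0.675. None of these 5 passed the test (limma adjusted p from 0.0899 to 0.571), where 14.8% of all probes tested did. AT5G27860 had deposited log2 differences of -0.51, -0.81 and -0.18 by number pair. CHLM and AT1G74470 were not near each other on this measure: the SD of their log2 ratio was 0.882, which placed AT1G74470 at rank 350 of 475 from CHLM and CHLM at rank 327 from AT1G74470.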

How the data were processed

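The authors deposited 1 intensity per probe and sample, from 0 to 100 per the file's values; scanning, background correction and scaling are not given in the sources used here. Genes come from the platform's probe table, with symbols from RefSeq TAIR10.1: 692 probes list 1 gene (690 matched), 870 list several and 1877 are unnamed. No genome build is named, so no coordinates are given.

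Zeros were treated as missing, other values were taken to log2 and quantile normalized, and limma 3.58.1 (R 4.3.3) was run on the 2993 probes that had at least 2 values per group (lmFit and eBayes, two-sided tests of psak against WT, p adjusted by Benjamini-Hochberg over these probes, threshold 0.05). The fit was tested on simulated data in which all samples were independent. That test cannot show how the fit behaves when the samples of a number pair are alike, as they are here. Values within number pairs and the ratio are descriptions. Intervals are at 95%. Alternatives were other scalings, an offset of 0.1, a filter on the dimmest 25%, blocks, pair means, left-out samples and exact permutation.

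The members and lists were chosen with earlier results of these data known. Named are the 2 genes, every list gene with a tested probe of its own, and the 5 most similar patterns for each gene. Leaf, flower and senescence markers (17 genes) had 0 tested probes of their own, so the tissue was not checked. Figures were drawn with matplotlib 3.10.9.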

Additional observations from a re-analysis of the deposited data

Results flagged for a closer look

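As deposited, CHLM was higher in all of psak 1 to 4 than in all of WT 1 to 4 and lower in both psak 5 and 6 than in WT 5 and 6, where the log2 difference was -0.82. The ratio of CHLM to AT1G74470 turned in the same way, with a log2 difference of -0.67 in numbers 5-6. Neither turned after quantile normalization, with 0.18 for CHLM and 0.19 for the ratio in numbers 5-6. The opposed directions as deposited drew attention to both, and whether the number pairs differ was not tested. For CHLM intensity, 19.3% of the 2358 probes above 0 in all samples had the same arrangement, and for the ratio to AT1G74470 33.3% did. Psak 5 and 6 also had the lowest sample medians (0.218 and 0.226) and the most probes at 0 (18.1% and 19.4%); their part in the result was not tested. In 14 groups of 6 values, from the 6 pigment genes and the ratio, Dixon's criterion at 95% marked 0 single samples, where chance marks about 1 in 20.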

How the results depend on the processing

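CHLM kept its direction in all 26 settings (log2 fold change 0.43 to 0.82, adjusted p 0.0183 to 0.746). It passed with zeros kept by the offset (0.43, limma adjusted p = 0.0326), without the dimmest 25% of probes (0.63, 0.0464; fewer probes were tested), without numbers 5 and 6 in both groups (0.82, 0.0416), without psak 5 and 6 (0.71, 0.0316) and by exact permutation per probe (0.63, adjusted p = 0.0183). With single samples left out its log2 fold change ran from 0.50 to 0.69 (limma adjusted p 0.0473 to 0.118), passing without WT 2 (0.69, 0.0473) and without psak 6 (0.67, 0.0487). In each of these 7 settings the chlorophyll list had 1 called member instead of 0, which is CHLM. The share of all probes called was 13.8% with the offset, 18% without the dimmest probes, 26.5% without numbers 5 and 6, 31.9% without psak 5 and 6, 18.3% by permutation, 14% without WT 2 and 18.2% without psak 6. With single samples left out the list had 0 to 1. The cause was not tested in the other cases. AT1G74470 kept its direction without passing in all 26 (-0.48 to -0.07; with single samples left out -0.24 to -0.07).

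The count of probes called higher was 243 in the test of 12 samples, and of those lower 201. It was 146 higher and 275 lower as deposited, so that the majority turned, 141 and 125 with median scaling, 99 and 55 with number pairs as a random block, and 0 and 0 with pair means, where samples are fewer. It was 441 and 334 without numbers 5 and 6, and 524 and 423 without psak 5 and 6. With 1 sample left out it was 180 to 305 higher and 147 to 278 lower. Added after seeing the data, the random block gave 37 and 51 on deposited values and 0 and 2 after median scaling.

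The log2 ratio difference of 0.79 ran from 0.63 to 0.91 with single samples left out, and was 1.85 as deposited without numbers 5 and 6 (added after seeing the data). Within number pairs, CHLM was 1.17 in 1-2 and -0.82 in 5-6 as deposited, and 0.59 in 3-4 with the offset. AT1G74470 was -0.63 and -0.66 in 1-2 and 3-4 as deposited, -1.01 and -0.87 after median scaling, and in 5-6 it was 0.73 after median scaling and 0.068 with the offset. HEMA3 turned to -0.046 as deposited (with and without the random block), -0.021 without numbers 5 and 6 and -0.14 without psak 5 and 6. Z-ISO turned to 0.33 and 0.20 in the last 2 settings, and ran from -0.21 to 0.10 with single samples left out. The cause was not tested.

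The labels do not say that a sample number shared by the genotypes marks a shared origin. Deviations of same-numbered samples correlated at 0.0800 to 0.239 over 2358 probes, above 0.1 for 4 of 6 numbers, and 5 of 6 WT samples correlated best with the psak sample of their number, a hint from the data; the samples were not treated as paired. With the replicate number as a block, CHLM had limma adjusted p = 0.133 and AT1G74470 0.427, and with number pairs as a replicate block 0.0607 and 0.354. With number pairs as a replicate block, 309 probes were called higher and 346 lower, both more than in the test of 12 samples. The mean intensity of CHLM over the 12 samples exceeded that of 46.9% of the probes, zeros included, and that of AT1G74470 95.5%. In single samples CHLM could lie lower. It exceeded 18.1% of the values above 0 in WT 4 and 23.1% in WT 1.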
